A study of Mus musculus with 187 samples.

Results

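Genomic imprinting leaves some genes active from the allele of one parent only, and 9 imprinted transcripts were followed here through single mouse embryos: Kcnq1ot1, Cdkn1c, Impact, Snrpn, Mest, Peg3, Plagl1, Igf2r and Grb10. They were taken by name. The set was chosen by the values of Kcnq1ot1, which had the smallest p among the genes with a lower estimate when embryos injected with tRF-GlyGCC were set against embryos injected with GFP mRNA. Values in that comparison are therefore given as a description with no test. Of these transcripts, 7 are listed among the 8735 genes of the sperm RNA table and the same 7 among the 8805 genes of the tRF table, both of 2-cell embryos. Snrpn and Plagl1 are not listed there, and all 9 are among the 23534 features of the 4-cell table.

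The embryos were of the FVB strain and came from in vitro fertilisation with gametes of animals on a control diet. Zygotes were injected with RNA about 2 h after fertilisation, and each embryo was sequenced by itself. At the 2-cell stage, 32 h after fertilisation, 46 embryos had received small RNA from sperm of males on a low protein diet and 42 had received small RNA from sperm of control males, both at 0.5 ng/µl. Another 26 embryos had received a synthetic tRF-GlyGCC with modified bases, 6 an unmodified synthetic tRF-GluCTC, and 11 only mRNA of the fusion protein H3.3-GFP. The tRFs are pieces cut from tRNAs, here those for glycine and glutamate whose anticodons the names give. At the 4-cell stage, 27 embryos had received an antisense oligonucleotide to tRF-GlyGCC and 28 the H3.3-GFP mRNA. A table of the authors gives the injected 4-cell group a name that reads as an unmodified tRF-GlyGCC, so the identity of that RNA is uncertain, and the labels' name is used. The embryos carry a code that reads as a shared date and is called a batch here, with letters A to F for the sperm RNA embryos, G and H for the tRF embryos and J to R, without O, for the 4-cell embryos.

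An imprint is a DNA methylation or chromatin mark set in the egg or the sperm and kept through the divisions of the early embryo while most other marks are lost. Kcnq1ot1 is a long noncoding RNA made from the paternal allele inside the Kcnq1 gene, and in mouse it silences neighbouring genes in cis, among them Cdkn1c, an inhibitor of cyclin-dependent kinases. Impact, Snrpn, Mest, Peg3 and Plagl1 are expressed mainly from the paternal allele. Igf2r, the receptor that takes up and degrades the growth factor IGF2, and Grb10, an adaptor that dampens insulin and IGF receptor signalling, are maternal in most mouse tissues, with Igf2r expressed from both alleles in early embryos.

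Kcnq1ot1 lies at chr7:143213111-143296547 and Cdkn1c at chr7:143458339-143461059 of RefSeq's GRCm38.p6, the assembly that the authors' build mm10 represents. Snrpn spans chr7:59982495-60450177 and shares a start with Snurf, Peg3 lies at chr7:6703892-6730462, Mest at chr6:30733506-30748466, Igf2r at chr17:12682406-12769706, Grb10 at chr11:11930499-12037428 and Plagl1 at chr10:13090832-13131694. The promoter windows of 3 of them, each 250 bases before to 50 bases after a start in RefSeq's table, are shown, those of Kcnq1ot1 and Snrpn because their RNAs differed between batches of embryos and that of Mest because it holds 2 matches of the motif below. Windows of Impact and Cdkn1c were not searched. The windows shown are Kcnq1ot1 (chr7:143296498-143296797, minus strand), the start shared by Snrpn and Snurf (chr7:60005150-60005449, minus strand) and a Mest start (chr6:30737800-30738099, plus strand). Capitals mark TGCCGC, the letters bound by the imprint-protecting zinc finger protein ZFP57, searched on both strands, where GCGGCA is the reverse strand match.
Kcnq1ot1: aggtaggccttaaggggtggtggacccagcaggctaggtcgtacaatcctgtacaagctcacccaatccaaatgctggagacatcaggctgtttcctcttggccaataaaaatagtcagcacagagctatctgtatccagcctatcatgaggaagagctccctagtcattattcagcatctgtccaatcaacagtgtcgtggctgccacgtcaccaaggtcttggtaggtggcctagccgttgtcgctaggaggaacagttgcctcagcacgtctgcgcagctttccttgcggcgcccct
Snrpn and Snurf: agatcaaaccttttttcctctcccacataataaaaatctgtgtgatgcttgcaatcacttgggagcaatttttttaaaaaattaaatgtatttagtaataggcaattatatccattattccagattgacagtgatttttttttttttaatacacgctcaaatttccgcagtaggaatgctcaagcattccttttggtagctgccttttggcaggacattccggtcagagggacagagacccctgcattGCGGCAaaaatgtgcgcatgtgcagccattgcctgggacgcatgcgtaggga
Mest: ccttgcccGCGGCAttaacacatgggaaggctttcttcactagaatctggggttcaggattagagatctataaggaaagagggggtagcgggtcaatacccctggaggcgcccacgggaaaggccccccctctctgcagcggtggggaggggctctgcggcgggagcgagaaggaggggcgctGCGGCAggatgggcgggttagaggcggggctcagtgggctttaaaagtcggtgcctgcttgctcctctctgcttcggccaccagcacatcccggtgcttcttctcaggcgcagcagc
The Snrpn and Snurf window holds 1 match, the Mest window 2 and the Kcnq1ot1 window 0. Other windows searched hold 0 for Igf2r, Peg3, a further Mest start, a Grb10 start and the other Snrpn starts. Another Grb10 start and Plagl1 hold 1 each, and a Mest start overlapping the window shown holds 2. Of all 32817 promoter windows of this length, 11.6% hold at least 1 match and 1.53% at least 2. A match is a description of these letters and not a binding site, and a window with none says nothing about the protein.

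Libraries held 828292 to 4563540 counts with low protein sperm RNA, 664584 to 4180420 counts with control sperm RNA and 643981 to 2677200 counts in the tRF table. Levels of a gene at this stage are TMM-scaled CPM, its count relative to the library total. All 9 markers of the 2-cell stage, such as the Zscan4 genes, were listed in both 2-cell tables. Of 10 cumulus cell markers 1 was listed there, and 0 of 6 sperm and testis markers. Values of the 4-cell table are FPKM, which scale counts by transcript length and library total and leave the depth unknown. No label is said to tie an embryo to a litter, a male or an RNA preparation, so p-values cover only the spread among embryos, which may be technical in part. A number in the titles is shared by several embryos of a batch, and its meaning is not given. A lower value can reflect less RNA per cell or a change in fewer of an embryo's cells, and these cannot be told apart.

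Per length of transcript in GENCODE, Mest was the most abundant of the 7 transcripts at the 2-cell stage. Kcnq1ot1 was the least abundant in 4 of the 5 groups, a place next to Peg3 that depends on the length taken. Mest, an enzyme of the alpha/beta hydrolase fold, had a median of 38.5 CPM per kb with low protein sperm RNA and 40.3 with control sperm RNA. Cdkn1c, Igf2r, Impact and Grb10 followed with medians of 7.39, 7.36, 7.15 and 4.80 CPM per kb with low protein sperm RNA, and their quartiles overlapped. Peg3, a zinc finger protein gene, had a median of 1.59 CPM per kb there. The GENCODE transcript of Kcnq1ot1 is 93.1 kb long, more than its RefSeq bounds above span, and a shorter length would raise its value per kb. With that length Kcnq1ot1 had 0.818 CPM per kb with low protein sperm RNA and 1.36 with control sperm RNA. The quartiles of Kcnq1ot1 overlapped those of Peg3. In the 6 tRF-GluCTC embryos Peg3 stood below Kcnq1ot1, with a median of 0.270 CPM per kb against 0.543 for Kcnq1ot1. In the 4-cell table the order was another: Snrpn, a core protein of the splicing machinery, had the highest value with a median of 42.5 FPKM with antisense and 44.9 with GFP, followed by Igf2r with 21.3 FPKM with antisense and 21.9 with GFP. Impact, a regulator of the translation kinase GCN2, came next with 10.3 FPKM with antisense and 15.2 with GFP. Plagl1, a zinc finger transcription factor gene, came last and was listed at 0 in 15 of 27 antisense and 18 of 28 GFP embryos. Levels of the 2 stages are in different units and were not compared.

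**Figure D1:**
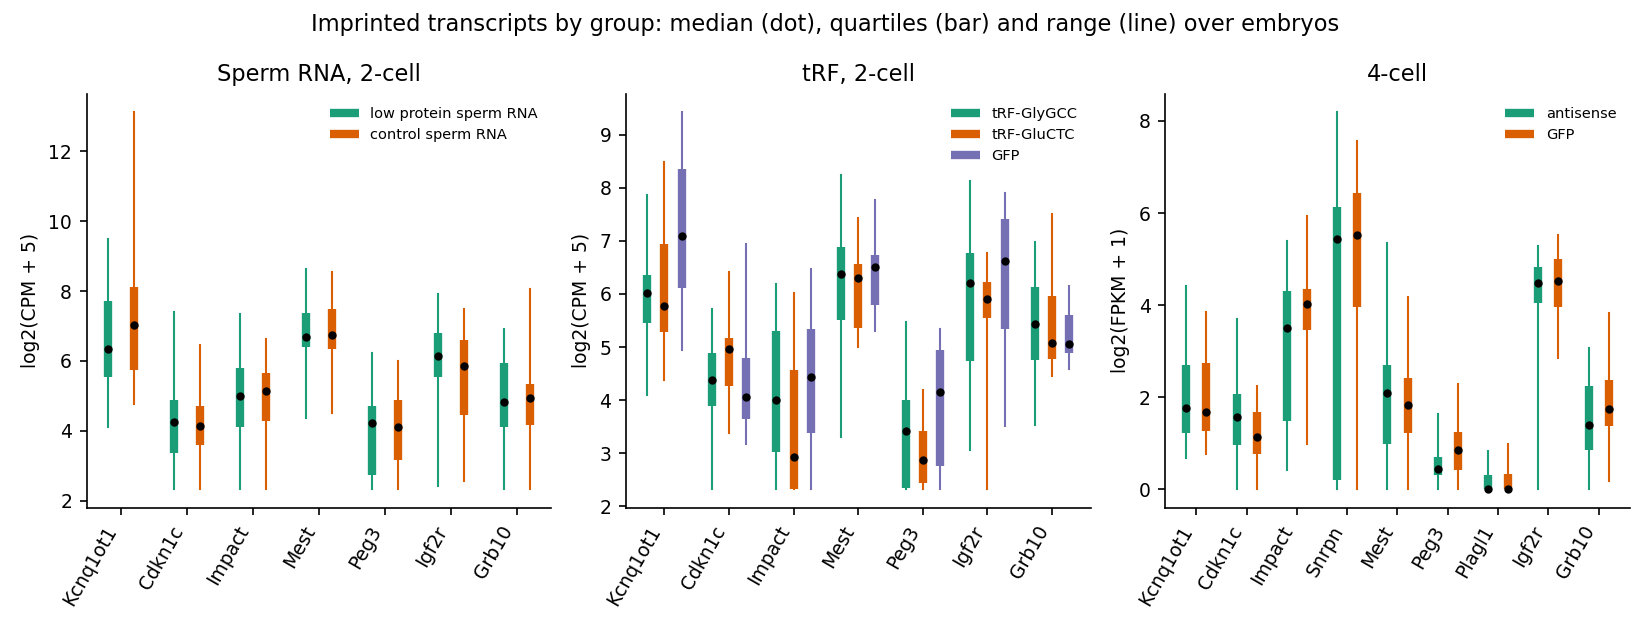
Levels of the imprinted transcripts by group, as log2(CPM + 5) in the sperm RNA and tRF tables and log2(FPKM + 1) in the 4-cell table. Dots are medians, bars quartiles and lines the range over embryos; the line of Kcnq1ot1 reaches highest with control sperm RNA, and the Snrpn bar of the antisense group reaches down to near 0.

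The first comparison set small RNA from sperm of low protein males against small RNA from sperm of control males. Kcnq1ot1 had 12.3, 76.2 and 720 CPM (lowest, median, highest) in the 46 embryos with low protein sperm RNA, against 22.1, 127 and 8905 CPM in the 42 with control sperm RNA. The ranges overlapped, and 29 of 46 embryos with low protein sperm RNA lay under the control median. The mean was 150 ± 162 CPM (SD) for low protein sperm RNA against 516 ± 1553 CPM for control sperm RNA. The fitted difference was -1.70 ± 0.43 on the log2 scale (SE; edgeR quasi-likelihood test with Benjamini-Hochberg adjustment, adjusted p = 0.101), so it did not pass the threshold of 0.05, which 0.0917% of 8721 genes passed. DESeq2 gave it an adjusted p of 0.00227, and edgeR without the batch term one of 0.0180.

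That estimate rested on a pair of control embryos of batch E. Control embryos 22 and 26 had 5280 and 8905 CPM of Kcnq1ot1, while the highest of the other 86 embryos had 782 CPM. They were also the libraries with the fewest counts of the table, 664584 and 678326 counts, and whether that bears on the value was not tested. Without them the control mean was 188 ± 196 CPM, the log2 fold change was -0.51 ± 0.29 and the edgeR adjusted p was 0.999. By batch, the Kcnq1ot1 median was lower with low protein sperm RNA in 2 of 6 batches and higher in the other four. In batch E it was 64.8 CPM with low protein sperm RNA (n = 25) against 180 CPM with control sperm RNA (n = 17), and in batch F 18.9 CPM with low protein (n = 3) against 103 CPM with control sperm RNA (n = 7). In batch A it was 208 CPM with low protein sperm RNA (n = 7) against 159 CPM with control sperm RNA (n = 5).

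**Figure D2:**
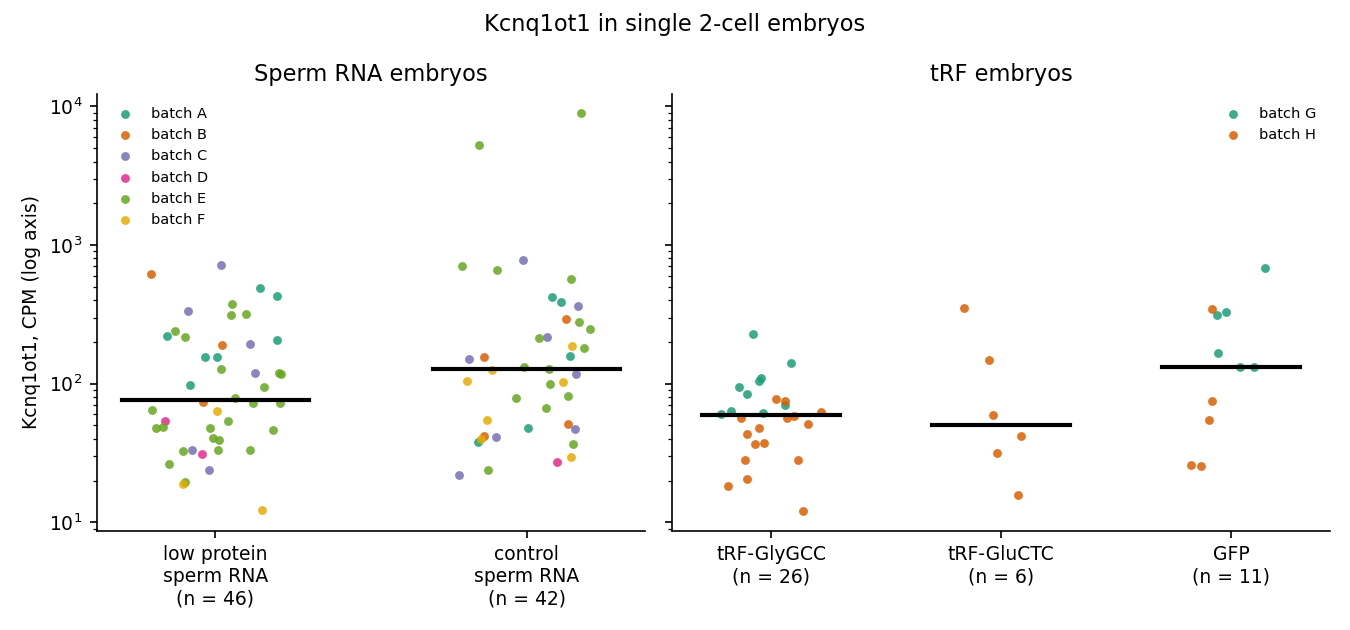
Kcnq1ot1 in single 2-cell embryos, CPM on a log axis. Each point is an embryo coloured by batch and each black line a group median; control embryos 22 and 26 lie at 5280 and 8905 CPM, and tRF-GlyGCC embryos lie between 12.1 and 228 CPM.

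Cdkn1c, the neighbour of Kcnq1ot1, had 0, 14.005 and 164 CPM (lowest, median, highest) with low protein sperm RNA and 0, 12.5 and 82.1 CPM with control sperm RNA. On the log2 scale the fitted difference was 0.13 ± 0.36 (edgeR adjusted p = 1.0). Kcnq1, the potassium channel gene in whose bounds Kcnq1ot1 lies on the other strand, was at -0.30 ± 0.42 on that scale (edgeR adjusted p = 1.0). The sources used here do not say that counting used strand, so reads of Kcnq1ot1 and of Kcnq1 introns cannot be told apart, and the same holds for Igf2r and its antisense Airn. The other paternal transcripts lay close together in both groups. Impact had 0, 26.9 and 157 CPM with low protein sperm RNA and 0, 30.1 and 93.8 CPM with control sperm RNA. Mest had 15.7, 97.7 and 389 CPM with low protein sperm RNA and 17.8, 102 and 368 CPM with control sperm RNA. Peg3 had 0, 13.8 and 69.7 CPM with low protein sperm RNA and 0, 12.2 and 59.3 CPM with control sperm RNA. These ranges overlap, with 4 and 5 of 6 batches having a lower low protein median for Impact and Mest and 2 of 6 for Peg3. Impact lies on chromosome 18 at 12954690 to 12992950. Beside these values, the summed 2-cell markers had medians of 2302 CPM with low protein sperm RNA and 2850 CPM with control sperm RNA, and whether that bears on them was not tested.

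Of the genes on the maternal side, Igf2r had 0.321, 65.4 and 238 CPM with low protein sperm RNA and 0.932, 53.4 and 173 CPM with control sperm RNA. Grb10 had 0, 23.5 and 116 CPM with low protein sperm RNA and 0, 25.7 and 263 CPM with control sperm RNA. Log2 fold changes of the 6 transcripts other than Kcnq1ot1 lay between -0.04 and 0.30 with SEs of 0.18 to 0.46 (edgeR adjusted p = 1.0 for each). The interval was narrowest for Mest, from -0.40 to 0.31, and reached from -0.60 to 1.19 for Peg3. Of the 7, 0 passed the test by edgeR and 1, Kcnq1ot1, had an unadjusted p under 0.05, while 1 passed by DESeq2. Over all 8721 genes 348 had such a p by edgeR and 15 passed by DESeq2.

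The tRF embryos tested a single synthetic tRF against the GFP mRNA. Kcnq1ot1 had 12.1, 59.4 and 228 CPM (lowest, median, highest) in 26 tRF-GlyGCC embryos, against 25.6, 132 and 680 CPM in 11 GFP embryos. Of the tRF-GlyGCC embryos 24 of 26 lay under the GFP median, though the ranges overlapped. The log2 fold change was -1.38 ± 0.35, described with no test since this comparison picked the gene. No gene of the table passed edgeR's threshold for tRF-GlyGCC against GFP, for tRF-GluCTC against GFP or between the tRFs (0.0% of 8804 in each), with 285, 305 and 194 genes at an unadjusted p under 0.05. DESeq2 called 0, 1 and 1.

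Within each batch the tRF-GlyGCC median and mean were below those with GFP. In batch G, 10 tRF-GlyGCC embryos had 60.7, 89.4 and 228 CPM of Kcnq1ot1 and 6 GFP embryos had 131, 240 and 680 CPM. In batch H, 16 tRF-GlyGCC embryos had 12.1, 45.8 and 77.9 CPM, and the 5 GFP embryos had 26.1, 25.6, 55.0, 75.04 and 344 CPM. In batch G the tRF-GlyGCC mean was 102 ± 51.1 CPM against a GFP mean of 292 ± 210 CPM (SD). In batch H the tRF-GlyGCC mean was 44.3 ± 19.7 CPM against a GFP mean of 105 ± 135 CPM, and GFP embryo 10 was the highest there. Whether the difference varied between batches was not tested. Without GFP embryo 10 the log2 fold change was -0.93 ± 0.37. Over all groups the Kcnq1ot1 median was 121 CPM in batch G and 48.0 CPM in batch H. No test of batch is given, since these embryos entered the choice of the gene.

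Injection of tRF-GluCTC, all in batch H, left Kcnq1ot1 at 42.03, 353, 148, 59.1, 15.7 and 31.6 CPM in its 6 embryos, with a median of 50.6 CPM. Against GFP, whose embryos it shares with the comparison above, the log2 fold change was -0.05 ± 0.54 with an interval of -1.11 to 1.00, given with no test since these GFP embryos entered the choice of the gene. Without the batch term the estimate was -0.93. Between the tRFs the log2 fold change of tRF-GlyGCC over tRF-GluCTC was -1.33 ± 0.43, or -0.71 without the batch term, given with no test because the same tRF-GlyGCC embryos chose the gene. Within batch H the medians were 45.8 CPM with tRF-GlyGCC and 50.6 CPM with tRF-GluCTC.

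For the other 6 transcripts the ranges of the 3 groups overlapped. Cdkn1c had 0, 15.9 and 47.3 CPM with tRF-GlyGCC, 5.47, 26.008 and 80.1 CPM with tRF-GluCTC and 4.07, 11.6 and 118 CPM with GFP. Medians with tRF-GlyGCC, tRF-GluCTC and GFP, in this order, were 5.70, 2.34 and 12.8 CPM for Peg3 and 11.1, 3.34 and 16.6 CPM for Impact. They were 78.2, 74.2 and 85.9 CPM for Mest, 69.2, 56.5 and 93.5 CPM for Igf2r, and 38.4, 28.8 and 28.2 CPM for Grb10. Against GFP, 0 of these 6 transcripts passed with tRF-GluCTC by edgeR or DESeq2, and 0 had an unadjusted p under 0.05 by edgeR. With 6 tRF-GluCTC embryos the intervals were wide, from -4.02 to 0.75 for Peg3 and from -2.17 to 2.30 for Impact on the log2 scale.

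**Figure D3:**
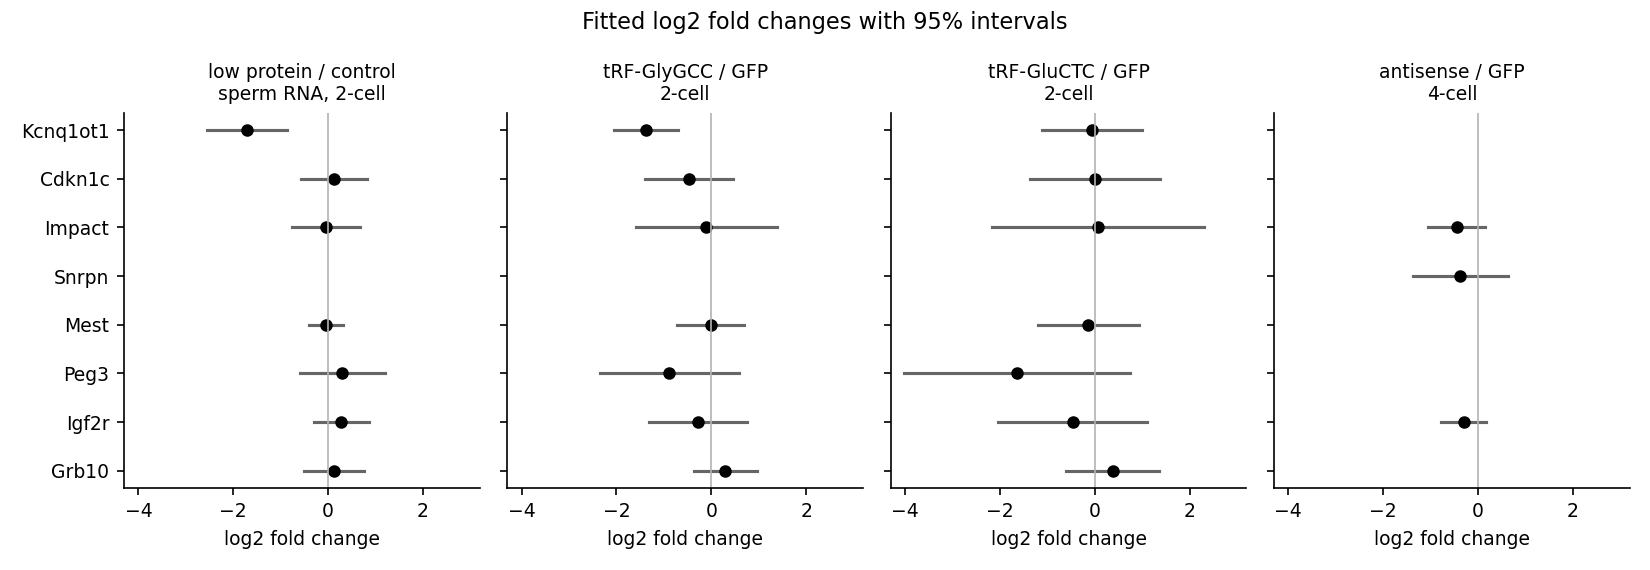
Fitted log2 fold changes of the imprinted transcripts in 4 comparisons, with 95% intervals, by edgeR for the 2-cell tables and limma on log2(FPKM + 1) at the 4-cell stage. A transcript with no point was not listed or lay under the filter of a mean of 5 FPKM. Kcnq1ot1 lies lowest in the low protein and tRF-GlyGCC panels, at -1.70 and -1.38. The tRF-GlyGCC comparison chose Kcnq1ot1, so its intervals in the tRF panels are a description and no test.

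The 4-cell embryos set the antisense oligonucleotide against GFP. Kcnq1ot1 had 0.599, 2.40 and 20.3 FPKM (lowest, median, highest) with antisense and 0.690, 2.22 and 13.5 FPKM with GFP, with means of 4.17 ± 4.70 FPKM with antisense and 4.13 ± 3.82 FPKM with GFP (SD). Its mean was under the filter of 5 FPKM, so it was outside the main test, and limma without the filter gave -0.23 ± 0.21 on log2(FPKM + 1) (adjusted p = 0.842). In the authors' deposited table its group values were 3.47 FPKM with antisense and 3.62 FPKM with GFP, for a locus that reaches beyond the RefSeq bounds of Kcnq1ot1 on both sides. Within batches its median was lower with antisense in 7 of 7, by between 0.0389 FPKM in batch Q and 4.80 FPKM in batch N.

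Of the transcripts above the filter, Snrpn had 0, 42.5 and 291 FPKM with antisense and 0, 44.9 and 190 FPKM with GFP. Impact had 0.334, 10.3 and 40.8 FPKM with antisense and 0.969, 15.2 and 60.5 FPKM with GFP. Igf2r had 0, 21.3 and 38.3 FPKM with antisense and 6.22, 21.9 and 44.7 FPKM with GFP. On log2(FPKM + 1) the differences were -0.37 ± 0.51 for Snrpn, -0.45 ± 0.31 for Impact and -0.30 ± 0.24 for Igf2r (limma adjusted p of 0.850, 0.627 and 0.684), where 0.0276% of 7237 features passed. Of these 3, 0 passed and 0 had an unadjusted p under 0.05 by limma, the only tool run here. Medians were lower with antisense in 3 of 7 batches for Snrpn, 4 for Impact and 6 for Igf2r. Without batches M and N the Snrpn difference was -0.87 ± 0.60 (limma adjusted p = 0.607), an alternative chosen after seeing the data. The summed 2-cell markers had medians of 188 FPKM with antisense and 75.7 FPKM with GFP, and their part in these differences was not tested. In the authors' deposited table Snrpn had 49.8 FPKM with antisense and 61.1 FPKM with GFP (q-value 0.873), and Impact 13.2 FPKM with antisense and 18.1 FPKM with GFP (q-value 0.452).

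The transcripts under the filter were low in both groups. Cdkn1c had 0, 1.97 and 11.9 FPKM with antisense and 0, 1.204 and 3.71 FPKM with GFP. Mest had 0, 3.24 and 40.002 FPKM with antisense and 0, 2.56 and 17.03 FPKM with GFP. Grb10 had medians of 1.64 FPKM with antisense and 2.33 FPKM with GFP, lower with antisense in 6 of 7 batches. Peg3 had medians of 0.359 FPKM with antisense and 0.812 FPKM with GFP, lower in 5 of 7. Of the Cdkn1c values 7 of 27 with antisense lay above the highest with GFP. Without the filter limma gave 0.41 ± 0.23 for Cdkn1c, -0.52 ± 0.24 for Grb10 and -0.28 ± 0.15 for Peg3 (adjusted p of 0.729, 0.620 and 0.685). The highest Plagl1 value was 0.768 FPKM with antisense and 0.988 FPKM with GFP.

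Within both groups the paternal transcripts Snrpn, Snurf and Impact split the 4-cell embryos by batch. In batch M, Snrpn was 0, 0, 0.320, 0.646 and 0.440 FPKM in the 5 antisense embryos and 0, 0.703, 0 and 1.10 FPKM in the 4 GFP embryos. In batch N it was 68.5, 0, 0, 69.1 and 0.454 FPKM in the 5 antisense embryos and 0 and 0.723 FPKM in the 2 GFP embryos. In the other 6 batches the batch medians lay between 33.3 and 82.98 FPKM. The widest gap in the Snrpn values of all 55 embryos, on the log2(FPKM + 1) scale, ran from 5.45 to 19.9 FPKM. Below it were 18 embryos, 11 with antisense and 7 with GFP, of which 14 were among the 16 embryos of batches M and N and 4 among the 39 embryos of the other batches. Those 4 were antisense embryos 10 of batch J and 4 and 20 of batch Q, each at 0, and GFP embryo 17 of batch Q at 5.45 FPKM.

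The limma F test of batch gave adjusted p-values of 6.52e-05 for Snrpn and 0.00313 for Impact, and 0.716 for Igf2r, where 4.38% of 7237 features passed. The batches were singled out after their values were seen. Snurf, encoded on the same transcript as Snrpn, had medians of 0.293 FPKM in batch M and 0.413 in batch N, against 8.29 to 18.8 FPKM in the other batches (limma adjusted p = 3.26e-05). Since Snurf and Snrpn share exons, their values are not independent. Impact had medians of 1.38 FPKM in batch M and 2.01 in batch N, against 13.5 to 19.4 FPKM in the other batches. Mcts2, a paternal retrogene, had medians of 0 and 6.29 FPKM in batches M and N, against 11.5 to 39.3 FPKM in the others (limma adjusted p = 3.26e-05). Gab1, a signalling adaptor gene whose maternal allele is silenced by a histone mark in mouse embryos, had 0 and 0.434 FPKM, against 5.998 to 10.045 FPKM (limma adjusted p = 2.25e-04). Commd1, a gene with a maternal allele expressed, also passed (limma adjusted p = 0.0254). Its medians were 20.5 and 10.3 FPKM in batches M and N, against 21.1 to 40.7 FPKM in the others. Snurf, Mcts2, Gab1 and Commd1 were the 4 that passed of 38 genes tested from the lists given below.

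Mest was also low in batches M and N, with medians of 0.543 and 1.24 FPKM against 3.60 FPKM over the 39 embryos of the other batches, but it lay under the filter. Without the filter, where 1.17% of 20380 features passed the limma test of batch, its adjusted p was 0.357. Peg3 had medians of 0.251 and 0.466 FPKM against 0.557 FPKM, and its adjusted p was 0.669. Igf2r, listed at 0 in antisense embryo 19, had medians of 21.5 FPKM in batch M and 35.2 in batch N, against 20.7 FPKM over the other embryos.

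Kcnq1ot1, though paternally expressed like Snrpn and Impact, went the other way. Its median was 6.10 FPKM in batch M and 5.59 FPKM in batch N, against 1.75 FPKM over the 39 embryos of the other batches (limma adjusted p of batch without the filter, 0.00663). Values ran from 1.29 to 20.3 FPKM in batches M and N and from 0.599 to 10.3 FPKM in the others, so the ranges overlapped. Cdkn1c had medians of 2.19 and 1.44 FPKM in batches M and N, against 1.38 FPKM over the others (adjusted p = 0.828 without the filter), and Grb10 had 1.64 and 3.41 FPKM against 2.05 FPKM (adjusted p = 0.546).

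**Figure D4:**
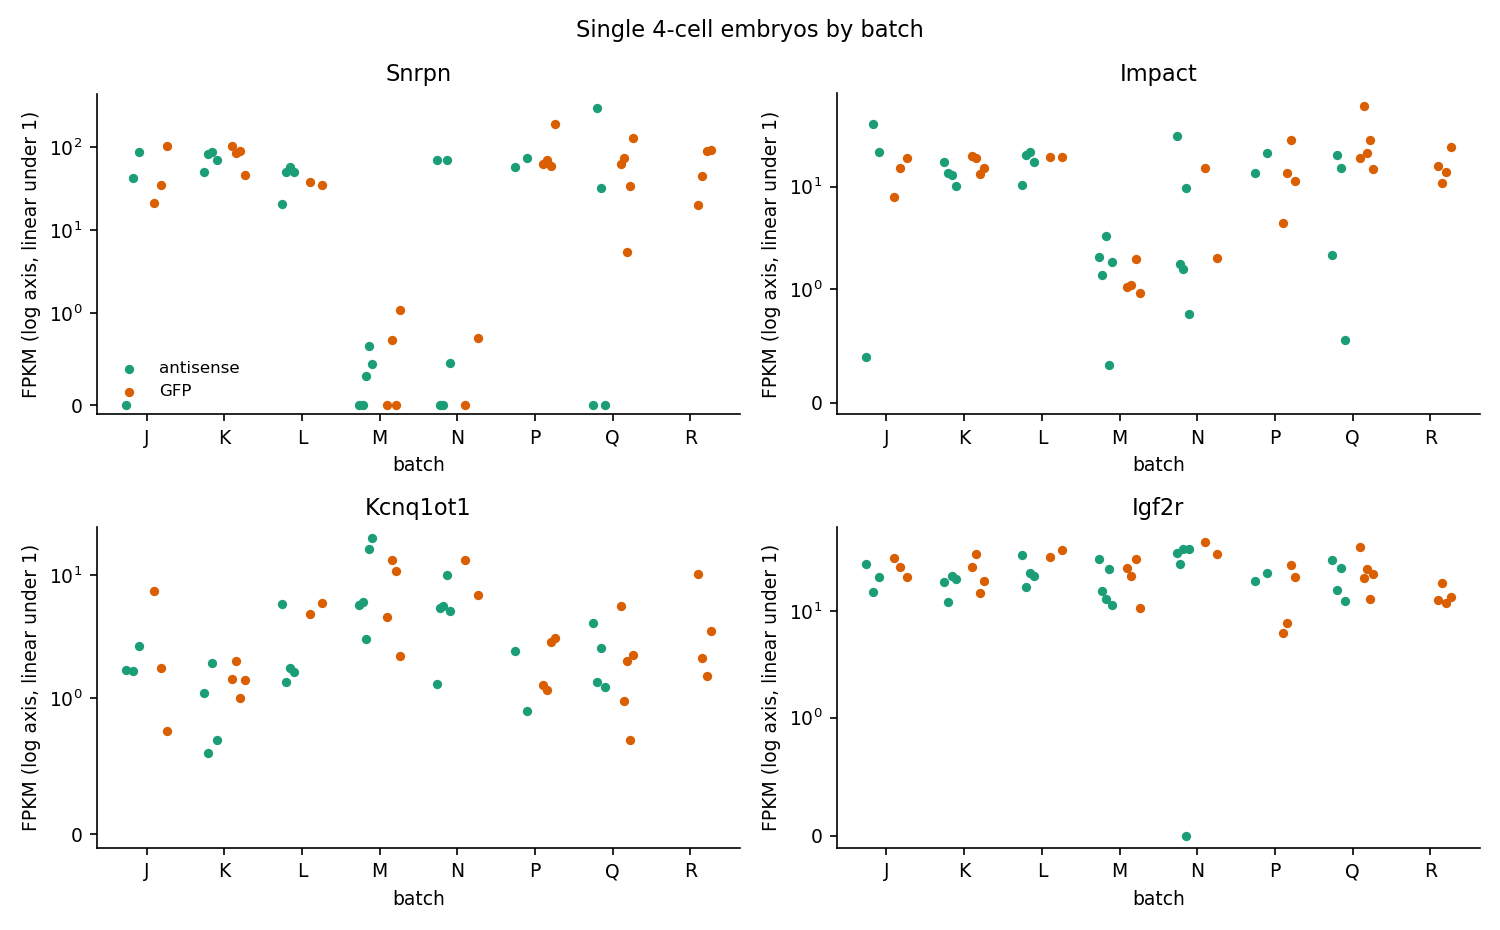
Snrpn, Impact, Kcnq1ot1 and Igf2r in single 4-cell embryos by batch, in FPKM on an axis that is logarithmic above 1 and linear below. Antisense embryos are green and stand left of the orange GFP embryos; in batch M every embryo has a Snrpn value of at most 1.10 FPKM, while Kcnq1ot1 in batches M and N has medians of 6.10 and 5.59 FPKM.

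Other values moved with these batches. The Y-linked Eif2s3y was listed at 0 in 9 of 9 embryos of batch M and under 1 FPKM in 6 of 7 of batch N, against 18 of 39 in the other batches. Ddx3y, also Y-linked, was under 1 FPKM in 15 of 16 embryos of batches M and N, against 19 of 39. Xist, the paternally expressed RNA of the X chromosome in early embryos, was under 1 FPKM in 12 of 16 and in 22 of 39. The summed level of the 9 markers of the 2-cell stage had medians of 203 FPKM in batch M and 484 in batch N, against 80.1 FPKM over the other embryos, and that of 9 oocyte markers 169 and 303, against 320 FPKM. Medians of 10173 features in batch M, 9971 in batch N and 10088 in the other batches reached 1 FPKM, with 6644 in antisense embryo 19 of batch N. The part of any of these in the batch differences was not tested.

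At the 2-cell stage Mcts2, Gab1 and Phlda2 differed between batches of the tRF table. They were 3 of 45 genes tested from the lists given below, beside 1.56% of all genes. Mcts2 had a median of 0 CPM in the 27 embryos of batch H and 27.03 CPM in the 16 of batch G (edgeR adjusted p of batch, 0.0254), and Gab1 had 0 and 9.24 CPM (edgeR adjusted p = 0.00401). Phlda2, a gene of the Kcnq1 region with a maternal allele expressed, went the other way. Its medians were 42.4 CPM in batch H and 8.61 CPM in batch G (edgeR adjusted p = 0.0158). Impact was at 0 in 8 of 27 embryos of batch H and 0 of 16 of batch G, with medians of 6.68 and 32.6 CPM, but did not pass (edgeR adjusted p = 0.453). Snurf had medians of 10.2 and 16.1 CPM (edgeR adjusted p = 0.866). For the sperm RNA embryos, 9.22% of genes passed the edgeR test of batch and 0 of the 7 transcripts did. Kcnq1ot1 and Grb10 came nearest, with adjusted p-values of 0.0734 and 0.0738. At an unadjusted p under 0.05 there were 3 of the 7 by edgeR, the third being Igf2r, beside 2176 of all 8721 genes. No other tool was run for batch. Of the 45 list genes tested there 11 passed, with edgeR adjusted p-values of at most 0.0399. They were Phlda2, Th, Igf2bp1 and the imprint protection genes Hnrnpk, Zfp57, Ezh2, Tet3, Padi6, Uhrf1, Eed and Khdc3. Phlda2 was lowest in batch B, at a median of 6.56 CPM, and highest in batch A, at 37.3 CPM.

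Genes whose values were most like those of Kcnq1ot1 were the noncoding A630089N07Rik, the receptor kinase gene Grk4, the noncoding A130077B15Rik, the pseudogene Gm17821 and the noncoding Gm20300. They were the 5 genes with the highest Spearman rho among 8721, over residuals of log2(CPM + 5) within group and batch in 87 sperm RNA embryos, at 0.967, 0.920, 0.909, 0.886 and 0.878. The median rho of all genes was -0.00488. In the 43 tRF embryos, which did not enter the choice, their rho was 0.923, 0.845, 0.872, 0.644 and 0.682, and A630089N07Rik, A130077B15Rik and Grk4 were the first 3 of 8803 genes. Pearson's r there was 0.941, 0.862, 0.856, 0.619 and 0.730, and without the 2 embryos farthest from the median of Kcnq1ot1 it was 0.912, 0.806, 0.847, 0.539 and 0.703. The permutation p was 1e-05, the smallest that 100000 permutations can give, for A630089N07Rik, Grk4 and A130077B15Rik, with adjusted p-values of at most 4e-05 over all 5. In the 55 4-cell embryos their rho was 0.927, 0.945, 0.932, 0.932 and 0.917, which placed all 5 among the first 6 of 10716 features.

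These 5 genes lie on chromosomes 16, 5, 10, 12 and 10, and none on chromosome 7. They were high in the same embryos as Kcnq1ot1. A630089N07Rik had 3197 and 6013 CPM in control embryos 22 and 26, where the highest of the other embryos had 415 CPM. Without control embryos 22 and 26 the same 5 genes had the highest rho, from 0.869 to 0.964. With low protein sperm RNA, A130077B15Rik had a log2 fold change of -1.63 ± 0.37 and Gm17821 one of -1.37 ± 0.32 against control (edgeR adjusted p = 0.0435 for each). Without those embryos they had -0.40 ± 0.22 and -0.39 ± 0.19 (edgeR adjusted p = 0.999). For tRF-GlyGCC over GFP the log2 fold changes were -1.30 for A630089N07Rik, -1.14 for Grk4 and -0.88 for A130077B15Rik. They were -0.48 for Gm17821 and -1.24 for Gm20300. No test is given there, since that comparison chose Kcnq1ot1, whose values these genes follow. At the 4-cell stage A630089N07Rik had medians of 108 FPKM in batch M and 70.3 in batch N, against 22.1 to 37.02 FPKM in the others (limma adjusted p of batch, 0.00156).

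**Figure D5:**
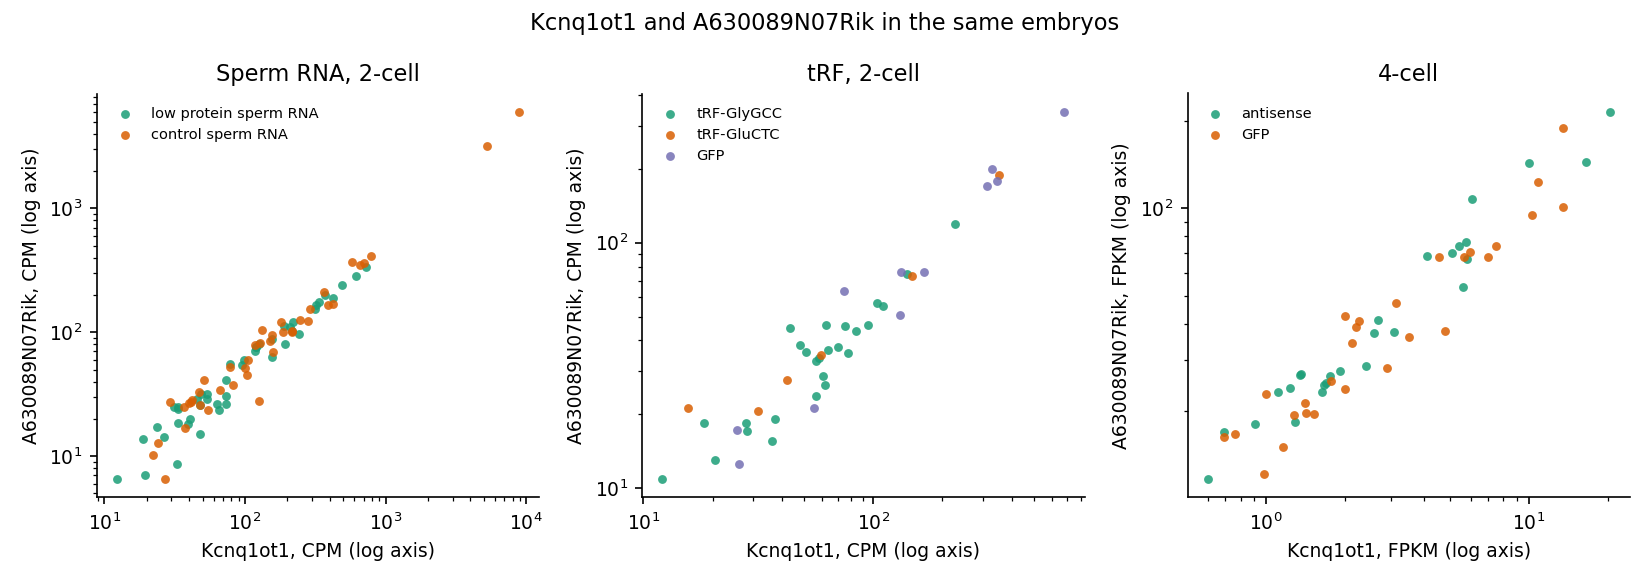
Kcnq1ot1 and A630089N07Rik in the same embryos, in CPM for the 2-cell tables and FPKM at the 4-cell stage, both axes logarithmic. Each point is an embryo coloured by group; Spearman's rho of the residuals is 0.967, 0.923 and 0.927 in the 3 tables, and control embryos 22 and 26 are the pair at the top right of the first panel.

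Kcnq1ot1 showed no relation to the other imprinted transcripts that passed the test. Across 21 pairs of transcripts in each 2-cell table, its rho lay between -0.14 and 0.19 in the sperm RNA embryos and between -0.25 and 0.27 in the tRF embryos. Mest and Igf2r ran against each other in both tables. Their rho was -0.38 and r -0.46 over 87 sperm RNA embryos (permutation test, adjusted p = 0.00662 and 0.00126) and -0.61 and -0.57 over 43 tRF embryos (adjusted p = 4.2e-04 and 0.00158). Without the 2 embryos farthest from the median, r was -0.43 and -0.55.

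Impact and Mest were related in the tRF embryos. Their rho was 0.62 and r 0.57 there (permutation test, adjusted p = 4.2e-04 and 0.00126), and -0.06 and -0.10 in the sperm RNA embryos (adjusted p = 0.714 and 0.546), and the difference between the tables was not tested. Other pairs past the threshold by both measures in the sperm RNA embryos were Igf2r with Cdkn1c, at a rho of -0.41, Mest with Cdkn1c at 0.32, and Impact with Peg3 at 0.34. In the tRF embryos they were Impact with Cdkn1c at 0.50 and Impact with Igf2r at -0.49. Since CPM share a total, these values are not free of one another. At the 4-cell stage the medians of both Snrpn and Impact were low in batches M and N, and no correlation among the 9 transcripts was computed.

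Of 96 other genes on 6 lists of imprinted genes, the Kcnq1 and H19 region, imprint protection and insulin signalling, 45 were tested in each 2-cell table and 38 at the 4-cell stage. In the 5 group comparisons 0 passed, by edgeR or limma and, for the 2-cell tables, by DESeq2. At an unadjusted p under 0.05 there were 3 with low protein sperm RNA, 2 and 1 with tRF-GlyGCC and tRF-GluCTC against GFP, 3 between the tRFs and 6 with antisense. Over all features the counts were, in this order, 348 of 8721, then 285, 305 and 194 of 8804, and 787 of 7237. The median log2 fold change of the list genes was -0.01 with low protein sperm RNA, beside 0.02 over all genes. With antisense it was 0.09, beside 0.01 over all features. Ube3a, the ubiquitin ligase gene next to the Snrpn cluster, had 117 ± 55.0 CPM with low protein sperm RNA (n = 46) and 76.2 ± 48.8 CPM with control sperm RNA (n = 42), which gave 0.58 ± 0.18 on the log2 scale (edgeR adjusted p = 0.618). With antisense it was 0.68 ± 0.22 on log2(FPKM + 1) (limma adjusted p = 0.188). Estimates with antisense were above 0 for 16 of 19 imprint protection genes, with a median of 0.11, beside 52.7% of all features. The oocyte markers were also higher with antisense in 9 of 9 estimates (median 0.40) and the 2-cell markers in 7 of 7 (median 1.06), and their part in the counts of these lists was not tested. Eed, a Polycomb subunit, had 0.45 ± 0.15 (limma adjusted p = 0.188).

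With low protein sperm RNA 53.9% of all genes had a higher estimate. Of the other imprinted genes with a paternal allele expressed, 4 of 22 were tested there, 1 with a higher and 3 with a lower estimate. Of those with a maternal allele expressed, 11 of 28 were tested there, 4 higher and 7 lower, and 8 of 28 at the 4-cell stage, 7 higher and 1 lower with antisense, where 52.7% of all features had a higher estimate and oocyte and 2-cell marker estimates were higher as given above. Of the genes silenced by maternal H3K27me3, Gab1 had a log2 fold change of -0.52 ± 0.52 with low protein sperm RNA (edgeR adjusted p = 1.0). Its fitted value was -1.88 ± 0.91 for tRF-GlyGCC over GFP, 2.02 ± 1.21 for tRF-GluCTC over GFP and -3.90 ± 1.15 for tRF-GlyGCC over tRF-GluCTC (edgeR adjusted p = 1.0 for each). Its median was 0 CPM in all 3 of those groups, and its means were 6.51 ± 14.9 CPM with tRF-GlyGCC, 6.48 ± 10.1 CPM with tRF-GluCTC and 10.8 ± 16.6 CPM with GFP (SD). With low protein sperm RNA 7 of 20 genes of the Kcnq1 and H19 region were tested, Cdkn1c among them, 3 higher and 4 lower. In insulin and IGF signalling 6 of 12 were tested there, 3 in each direction. For tRF-GlyGCC over GFP 0 of these 6 were higher and 6 lower, with a median of -0.21, beside 55.0% of all genes higher. For tRF-GluCTC over GFP 4 were higher and 2 lower, beside 49.6% of all genes higher. For tRF-GlyGCC over tRF-GluCTC 2 were higher and 4 lower, beside 54.4%.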

How the data were processed

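RNA of single embryos was sequenced with a single-cell protocol. The submitters' processing notes name Bowtie and mm10. Version, counter, annotation and use of strand are, for all tables, not given in the sources used here. At the 2-cell stage the tables hold expected counts deposited by the authors, with 0 shown as 0.1. The 4-cell table holds FPKM deposited by the authors, with 0 shown as 0.001. A further table deposited by the authors gives group FPKM, p-value and q-value, which were only copied. Of 28 antisense embryos in the labels, 1 was not analysed here, which leaves 186 embryos.

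After rounding, the counts entered edgeR 4.0.16 (TMM, filterByExpr, quasi-likelihood) in R 4.3.3. The 3 groups of the tRF table shared a fit. log2(FPKM + 1) was taken for features whose mean reached 5 FPKM and tested with limma 3.58.1 (trend, robust), and such folds understate the change of low genes. Both had batch as an additive term, two-sided tests, Benjamini-Hochberg adjustment over all features and a threshold of 0.05. The code of each title is the batch, which equals the date row of the file headers in all 88 and 43 columns of the 2-cell tables and stands only in the titles at the 4-cell stage. Batch R held GFP embryos only and batch D 1 control embryo. Correlations used residuals within group and batch with 100000 permutations, and the sperm RNA embryo alone in its group and batch was left out. Transcript lengths came from GENCODE vM21 and promoters from RefSeq's GRCm38.p6 table.

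All 9 transcripts are named, from each list the genes past the threshold and at most 2 per direction with the smallest p, and the 5 genes most like Kcnq1ot1 by Spearman's rho. Transcripts, lists and tests were chosen with earlier results of these data known. Alternatives were DESeq2 1.42.0, RLE scaling, no filter, no batch term and a block for the number in the titles. Others were sample quality weights, a pseudocount of 0.1, median scaling and leaving out libraries or batches. The scripts were tested on simulated data.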

Additional observations from a re-analysis of the deposited data

Results flagged for a closer look

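Of the 7 transcripts in the 6 tRF-GluCTC embryos, 2 had an embryo far from the others, the same one in both. Embryo 5 had 175.93 CPM of Grb10, where the next highest embryo had 69.1 CPM and the group median was 28.8 CPM. It also had 80.111 CPM of Cdkn1c, where the next highest had 32.7 CPM and the median was 26.008 CPM. Chance marks about 1 in 20 such groups where values follow a normal distribution. The values used were CPM with no log taken, and their chance rate was not tested. Groups of over 10 embryos were not checked this way.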

How the results depend on the processing

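Among 186 refits of the transcripts' log2 fold changes, 175 kept the direction and 11 turned it, none of these past the threshold. With low protein sperm RNA, quality weights gave 0.077 for Mest, -0.11 for Grb10, 0.011 for Impact and -0.12 for Cdkn1c, and no batch term gave 0.018 for Impact. Without the batch term Impact was -0.70 for tRF-GluCTC against GFP and 0.45 for tRF-GlyGCC against tRF-GluCTC. Kcnq1ot1 ranged from -1.78 to -0.44 with low protein sperm RNA, and its tRF-GlyGCC estimate from -1.50 to -0.93 without each GFP embryo in turn.

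Embryo numbers follow accession order and pair nothing, and they were not the block. The block used the number in the titles, which several embryos of a batch share and whose meaning is not given. With low protein sperm RNA it called 0 genes by edgeR (246 at an unadjusted p under 0.05), against 8 in the main fit. It gave -0.070 for Cdkn1c there and 0.16 for Igf2r with tRF-GlyGCC. For Impact it gave -0.59 and 0.54 in the tRF-GluCTC comparisons with GFP and with tRF-GlyGCC.

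With low protein sperm RNA the 8 calls became 15 by DESeq2, 16 without the batch term, and by edgeR 0 without control embryos 22 and 26 (329 at an unadjusted p under 0.05) and 0 with quality weights (337). DESeq2 called 1 gene with tRF-GluCTC over GFP and 1 between the tRFs, where edgeR called 0. At the 4-cell stage the 2 calls became 10 without antisense embryos 9 and 19, which had few features, and 0 without batches M and N, an alternative added after seeing the data, by limma with 790 at an unadjusted p under 0.05. Under median scaling the median difference over all features was -0.04, against 0.01, and 43.3% of estimates were higher, against 52.7%. The causes of these shifts were not tested. Depth is unknown at the 4-cell stage, and the 6 tRF-GluCTC embryos limit their comparisons.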
